A study of Mus musculus with 8 samples.

Results

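The genes described here are 10 mouse genes of type 2 immunity and eosinophils, out of 25006 genes counted in each of 8 tumor RNA libraries. They were picked by name, with their counts in these same libraries already known, so their own differences are given as a description and carry no test. They comprise the cytokines Il4, Il5, Il13 and Il33, the receptor genes Il1rl1, Il5ra and Il4ra, the transcription factor Gata3, and Siglecf and Rnase2a, which are read as eosinophil genes. All libraries came from tumors of 4T1, a Balb/c-derived mammary carcinoma line used to model triple-negative breast cancer, placed in the mammary fat pad and grown for at most 20 days. The host was either NSG, a strain without mature T, B and NK cells whose common cytokine receptor gamma chain gene Il2rg is disrupted but which keeps myeloid cells, or Balb/c, which has an intact immune system. The tumor cells either carried intact CD95 (the death receptor gene Fas) or had it knocked out with CRISPR/Cas9, giving 4 groups of 2 libraries. In each host the wild-type libraries came from the parental line and from a line labelled vCas9, and the knockout libraries came from clones 54 and 69. The members of a group were thus different lines, so the spread within a group includes differences between lines, and the knockouts were clones while the wild-type lines were not labelled as such. Age and sex of the hosts, and the number of tumors behind each library, are not given in the sources used here.

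Type 2 immunity is the arm of the immune response directed at helminths and allergens and at tissue repair. Epithelial and stromal cells release the alarmin IL-33, which acts through its receptor ST2, the product of Il1rl1, on type 2 innate lymphoid cells (ILC2), T helper 2 (Th2) cells, regulatory T cells and mast cells. Those lymphoid cells, under the control of GATA3, make IL-5, which drives eosinophil production and survival through the receptor chain encoded by Il5ra, and IL-4 and IL-13, which act through the shared chain encoded by Il4ra and induce an alternative activation program in macrophages. Siglec-F is a sialic acid binding receptor on mouse eosinophils and alveolar macrophages, and Rnase2a belongs to the family of eosinophil-associated ribonucleases.

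Library totals ranged from 8.68 M to 19.7 M counts. Levels are in CPM, the usual depth-scaled counts, here with TMM-scaled library totals. In the library order used throughout (parental then vCas9 line, clone 54 then clone 69), Fas was at 33.9 and 22.6 CPM in NSG wild type, 29.5 and 12.9 in NSG knockout, 51.6 and 46.9 in Balb/c wild type and 27.1 and 33.7 in Balb/c knockout. Fas RNA was thus read in every knockout library. In Balb/c both knockout libraries were below both wild-type libraries, whereas in NSG the genotypes overlapped, so there Fas does not check the labels. A CRISPR lesion need not remove the RNA and host cells also express Fas, and CD95 status is taken from the labels. The first gene of the T cell marker list, Cd3e, ranged from 0.107 to 2.90 CPM over the NSG libraries and from 26.0 to 66.0 CPM over the Balb/c libraries, which checks the labelled hosts.

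Il4, Il13 and Il5 lie together on chromosome 11 in GRCm38, with Il4 at 53602982 to 53618669 and Il13 at 53631324 to 53634702 on the minus strand, and Il5 at 53720794 to 53725106 on the plus strand. Because these neighbours were low or high in the same hosts, the 250 bases before their annotated starts were searched on either strand for the word that GATA factors bind, GATA preceded by A or T and followed by A or G, and for the spacing that STAT6 prefers, TTC and GAA with 4 bases between them. The GATA word occurred in 26.5% and the STAT6 spacing in 5.85% of all 32851 promoter records of that length. The promoters of the 3 neighbours and of the receptor genes Il5ra and Il1rl1 are shown 5′ to 3′ from RefSeq (GRCm38.p6), ending at the base before the start, with every match in capitals.
Il5 chr11:53720544-53720793 (plus strand): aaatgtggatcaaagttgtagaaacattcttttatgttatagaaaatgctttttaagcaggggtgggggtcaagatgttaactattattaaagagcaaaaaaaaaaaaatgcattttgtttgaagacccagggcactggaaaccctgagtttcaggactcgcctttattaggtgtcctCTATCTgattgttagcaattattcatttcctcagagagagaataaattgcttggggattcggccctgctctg
Il13 chr11:53634703-53634952 (minus strand): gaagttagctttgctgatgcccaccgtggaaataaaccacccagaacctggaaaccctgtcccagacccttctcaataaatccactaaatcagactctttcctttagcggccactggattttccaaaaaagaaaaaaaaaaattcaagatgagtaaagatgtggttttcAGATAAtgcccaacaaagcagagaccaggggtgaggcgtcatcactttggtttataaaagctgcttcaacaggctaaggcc
Il4 chr11:53618666-53618915 (minus strand): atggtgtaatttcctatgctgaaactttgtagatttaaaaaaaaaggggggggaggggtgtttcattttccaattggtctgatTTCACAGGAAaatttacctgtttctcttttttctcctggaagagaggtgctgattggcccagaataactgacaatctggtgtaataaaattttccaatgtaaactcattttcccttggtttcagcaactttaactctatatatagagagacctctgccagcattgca
Il5ra chr6:106749038-106749287 (minus strand): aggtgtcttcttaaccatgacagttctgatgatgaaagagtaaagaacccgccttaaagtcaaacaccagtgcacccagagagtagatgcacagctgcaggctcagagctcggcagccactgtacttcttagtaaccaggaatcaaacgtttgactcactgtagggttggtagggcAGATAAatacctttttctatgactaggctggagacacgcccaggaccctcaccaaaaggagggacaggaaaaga
Il1rl1 chr1:40429320-40429569 (plus strand): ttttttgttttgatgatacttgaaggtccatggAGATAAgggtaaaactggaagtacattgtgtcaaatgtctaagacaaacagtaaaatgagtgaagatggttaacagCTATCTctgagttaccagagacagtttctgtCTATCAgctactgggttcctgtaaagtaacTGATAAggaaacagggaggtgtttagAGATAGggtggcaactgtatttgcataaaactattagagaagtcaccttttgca
Il5 holds 1 GATA word 72 to 67 bases before the start, Il13 holds 1 at 81 to 76 bases and Il5ra holds 1 at 74 to 69 bases. The upstream Il4 record shown holds 1 match to the STAT6 spacing, 167 to 158 bases before its start, and the downstream Il4 record holds 1 GATA word 80 to 75 bases before its start. The upstream Il1rl1 record shown holds 5 GATA words and the downstream record holds 1. Il33 held 1 match to the STAT6 spacing, 36 to 27 bases before one of its starts, and the records of Il4ra, Gata3, Siglecf and Rnase2a held no match to either motif. A match to so short a word is a description of the sequence and shows no binding.

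The first question was how these genes differed between NSG and Balb/c hosts. The hosts differ in strain, in T, B and NK cells and in Il2rg, and the parts of these cannot be told apart. Of the cytokine genes made by lymphoid and granulocytic cells, Il4 was at 1.45 and 1.16 CPM in NSG wild type, 0.428 and 1.19 in NSG knockout, 16.1 and 20.2 in Balb/c wild type, and 16.4 and 31.5 in Balb/c knockout. Every Balb/c library was above every NSG library. Il4 was 13.7-fold higher in Balb/c for wild-type tumors (log2 3.78, SE 0.47) and 28.8-fold higher for knockout tumors (log2 4.85, SE 0.51). Without the NSG clone 69 library the knockout value was 5.77.

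Il13 had 1 and 3 counts in NSG wild type and 3 and 1 in NSG knockout, against 71 and 138 counts (6.03 and 9.56 CPM) in Balb/c wild type and 364 and 251 counts (19.3 and 18.3 CPM) in Balb/c knockout. At so few NSG counts the difference is given as a ratio of pooled counts per depth, with a 95% interval that covers counting error only. Fitted values are given only to show how far 1 library moves them. That ratio of Balb/c to NSG was 52.9 (20.3 to 196) in wild-type tumors and 91.5 (35.5 to 337) in knockout tumors. With 1 library left out, the fitted log2 difference ran from 4.91 without the NSG parental to 6.62 without the NSG vCas9 library in wild type, and from 5.83 without NSG clone 69 to 7.43 without NSG clone 54 in knockout. Il5 had 1 and 2 counts in each NSG group, against 14 and 38 counts (1.19 and 2.63 CPM) in Balb/c wild type and 120 and 56 counts (6.35 and 4.09 CPM) in Balb/c knockout. Its Balb/c to NSG ratio was 17.5 (5.68 to 87.8) in wild-type tumors and 34.9 (11.8 to 171) in knockout tumors, and its fitted log2 difference ran from 3.35 without the Balb/c vCas9 to 4.61 without the NSG vCas9 library in wild type, and from 4.61 without Balb/c clone 54 to 5.49 without NSG clone 69 in knockout. Of the exon bases of Il5, 27.1% are shared with an antisense gene that is not analysed here, and the strand setting of the counts is not given, so part of its counts may belong to that gene.

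Il33, the upstream alarmin, was not higher in Balb/c. It was at 109 and 166 CPM in NSG wild type, 212.5 and 128 in NSG knockout, 98.2 and 70.8 in Balb/c wild type, and 42.6 and 134.5 in Balb/c knockout. The wild-type libraries of the hosts did not overlap, with a log2 difference of -0.71 (SE 0.51), and the knockout libraries did, with -0.95 (SE 0.51). Without the Balb/c clone 69 library the knockout value was -2.0 and without clone 54 it was -0.37. The clone 69 tumor in Balb/c was above its NSG counterpart, and the clone 54 tumor was below. The summed CPM of 7 epithelial markers was 1060 and 1321 in NSG wild type, 2902 and 1910 in NSG knockout, 710 and 1777 in Balb/c wild type, and 695 and 3756 in Balb/c knockout. These sums had the order of the Il33 levels within each group except Balb/c wild type, and their part in the Il33 levels was not tested.

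Among the receptors, Il5ra was read almost entirely in the Balb/c tumors. It had 0 and 1 counts in NSG wild type and 0 and 3 in NSG knockout, against 113 and 199 counts (9.60 and 13.8 CPM) in Balb/c wild type and 478 and 398 counts (25.3 and 29.0 CPM) in Balb/c knockout. The pooled Balb/c to NSG ratio was 316 (56.2 to 12510) in wild-type tumors and 174 (59.2 to 844) in knockout tumors, with intervals as wide as 1 to 3 counts allow. The fitted log2 difference was 6.98 without the NSG parental and 6.46 without the NSG clone 54 library. Without the NSG vCas9 or the NSG clone 69 library, which held all NSG counts of their groups, it was 10.27 and 11.52, values that depend on the prior count. Il4ra, the shared IL-4 and IL-13 receptor chain, was abundant in all tumors, at 333 and 409 CPM in NSG wild type, 367 and 401 in NSG knockout, 652 and 596 in Balb/c wild type and 665 and 532 in Balb/c knockout. All 4 Balb/c libraries lay above all 4 NSG libraries, by log2 0.75 (SE 0.21) in wild type and 0.64 (SE 0.21) in knockout. An antisense gene not analysed here overlaps 9.51% of the Il4ra exon bases, and another overlaps 3.90% of those of Gata3.

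Il1rl1, the IL-33 receptor gene, was at 119 and 178.5 CPM in NSG wild type, 48.3 and 42.4 in NSG knockout, 239 and 219.0 in Balb/c wild type, and 144 and 209.6 in Balb/c knockout. The NSG knockout libraries stood below all others. The Balb/c level was therefore 3.90-fold the NSG level in knockout tumors (log2 1.96, SE 0.26), and the wild-type difference was log2 0.62 (SE 0.25). Gata3, which is also a transcription factor of mammary luminal epithelium, was at 39.8 and 30.1 CPM in NSG wild type, 51.3 and 39.0 in NSG knockout, 23.6 and 26.1 in Balb/c wild type, and 18.4 and 38.4 in Balb/c knockout. It was lower in Balb/c in both genotypes, by log2 -0.49 (SE 0.34) and -0.67 (SE 0.34), with libraries that did not overlap. The knockout value was -1.29 without the Balb/c clone 69 library and -0.26 without clone 54. Its level did not follow Il4, Il5 and Il13. The summed CPM of 5 luminal markers was 61.9 and 86.2 in NSG wild type, 493 and 201 in NSG knockout, 106 and 391 in Balb/c wild type, and 134 and 780 in Balb/c knockout. These sums had the order of the Gata3 levels within each group except NSG wild type, and they were higher in Balb/c than in NSG for wild-type tumors, where Gata3 was lower. Their part in the Gata3 levels was not tested.

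Siglecf and Rnase2a, read here as eosinophil genes, were low in NSG and high in Balb/c. Siglecf was at 3.12 and 7.87 CPM in NSG wild type, 29.5 and 23.4 in NSG knockout, 90.0 and 115 in Balb/c wild type, and 118 and 207.5 in Balb/c knockout. No group overlapped another, and the Balb/c level was 18.8-fold higher in wild type (log2 4.23, SE 0.46, or 5.02 without the NSG vCas9 library) and 6.15-fold higher in knockout (log2 2.62, SE 0.42). Rnase2a had 15 and 4 counts (1.04 and 0.331 CPM) in NSG wild type and 6 and 2 counts (0.642 and 0.199 CPM) in NSG knockout, against 24.6 and 25.6 CPM in Balb/c wild type and 639.9 and 219.5 CPM in Balb/c knockout. It was 34.9-fold higher in Balb/c for wild-type tumors (log2 5.13, SE 0.67), and without the NSG parental library the log2 value was 6.19. For knockout tumors the log2 value was 9.99 (SE 0.79), and it ranged from 8.99 without the Balb/c clone 54 library to 11.01 without the NSG clone 54 library. Bulk RNA gives the product of cell number and RNA per cell, summed over every cell type that holds the RNA. Fewer eosinophils, less of these RNAs per eosinophil and a different amount from other cells therefore cannot be told apart.

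**Figure D1:**
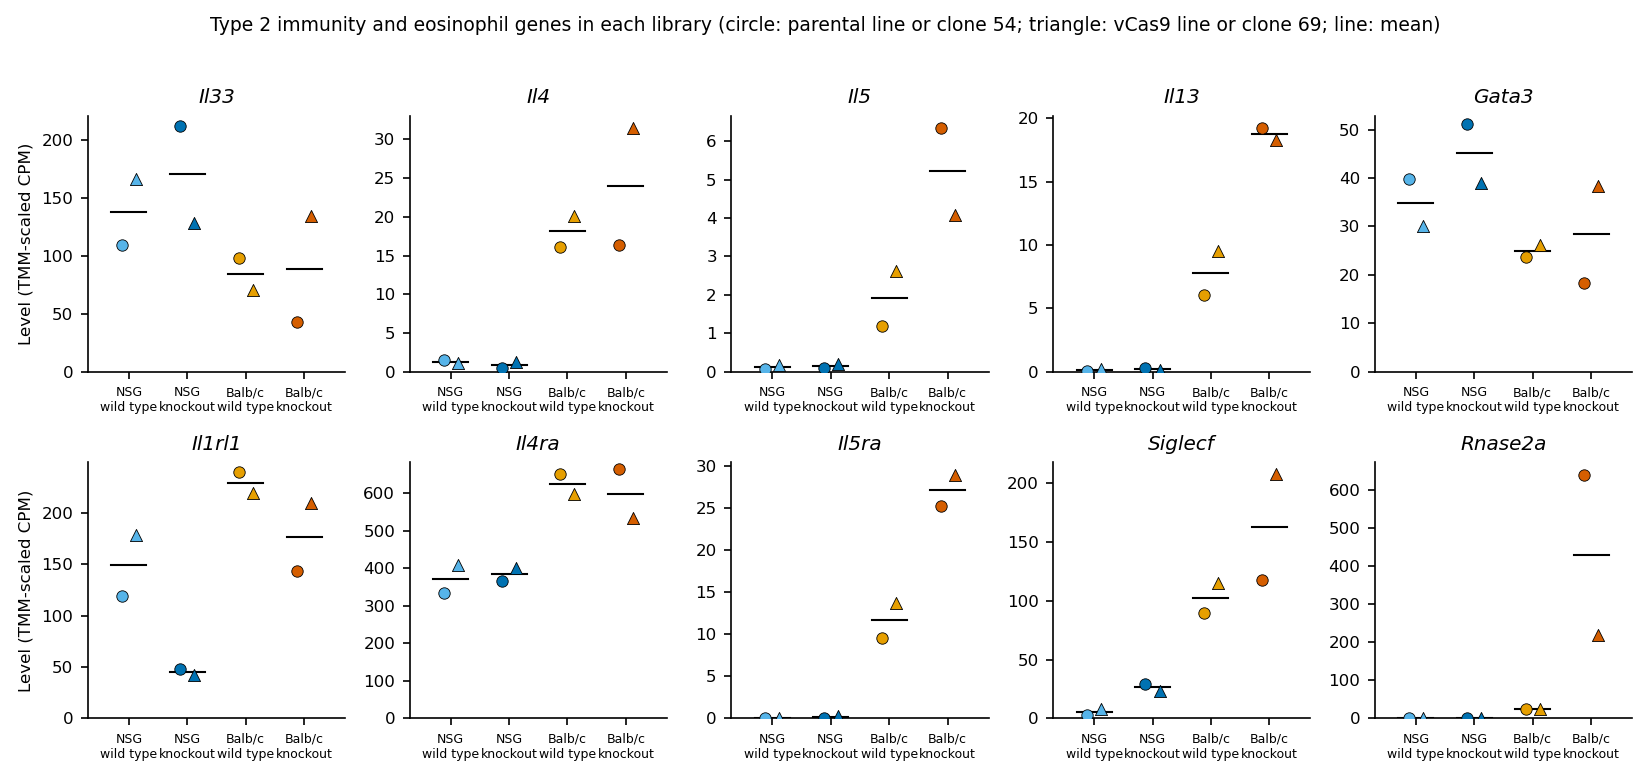
Level of each of the 10 genes (TMM-scaled CPM, linear axis from 0) in the 8 libraries; circles are the parental line or clone 54, triangles the vCas9 line or clone 69, and the horizontal line is the mean of 2 libraries. Il4, Il5, Il13, Il5ra, Siglecf and Rnase2a are low in NSG and high in Balb/c, whereas Il33 and Gata3 are not, and Rnase2a reaches 639.9 and 219.5 CPM in the Balb/c knockout libraries.

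Counted over the 10 genes, 7 (Il4, Il5, Il13, Il5ra, Il4ra, Siglecf and Rnase2a) had an edgeR adjusted p under 0.05 and were higher in Balb/c than in NSG for wild-type tumors, where 31.5% of all 15310 genes tested passed and 15.3% passed and were higher. For knockout tumors Il1rl1 joined them, giving 8 of 10, where 31.1% of all genes passed and 15.7% passed and were higher. All 8 were higher in both Balb/c libraries than in either NSG library in both genotypes, while 35.4% and 32.4% of all genes were so ordered. Il33 and Gata3 in wild-type tumors and Gata3 in knockout tumors were lower without overlap, as were 41.0% and 31.9% of all genes. The median log2 difference of the 10 genes was 3.96 in wild type and 3.74 in knockout with genes of few counts at their count ratio, against medians of -0.08 and 0.02 over all genes. Since the genes were picked with these contrasts in view, nothing is read from these counts. Some of these calls ended under alternatives. The Il4ra call was lost in wild type without any of the 4 wild-type libraries, with total counts (log2 0.59) and with the line as a block, and in knockout with either of those settings (0.45 with total counts), without the low-count filter, in the fit of the 4 knockout libraries alone and without any 1 library except clone 69 in Balb/c. The wild-type Il5 call was lost without the NSG parental library. Other calls were gained: Il33 and Gata3 in knockout tumors passed as falls without the Balb/c clone 69 library and with the clones paired crosswise (-1.12 and -0.75), and Il1rl1 in wild type passed with DESeq2, without the filter, in the fit of 4 libraries and without either Balb/c knockout library. DESeq2 called 32.3% of all genes in wild-type and 29.8% in knockout tumors. The direction of each of the 10 genes in the host comparisons held in all alternative analyses run.

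**Figure D2:**
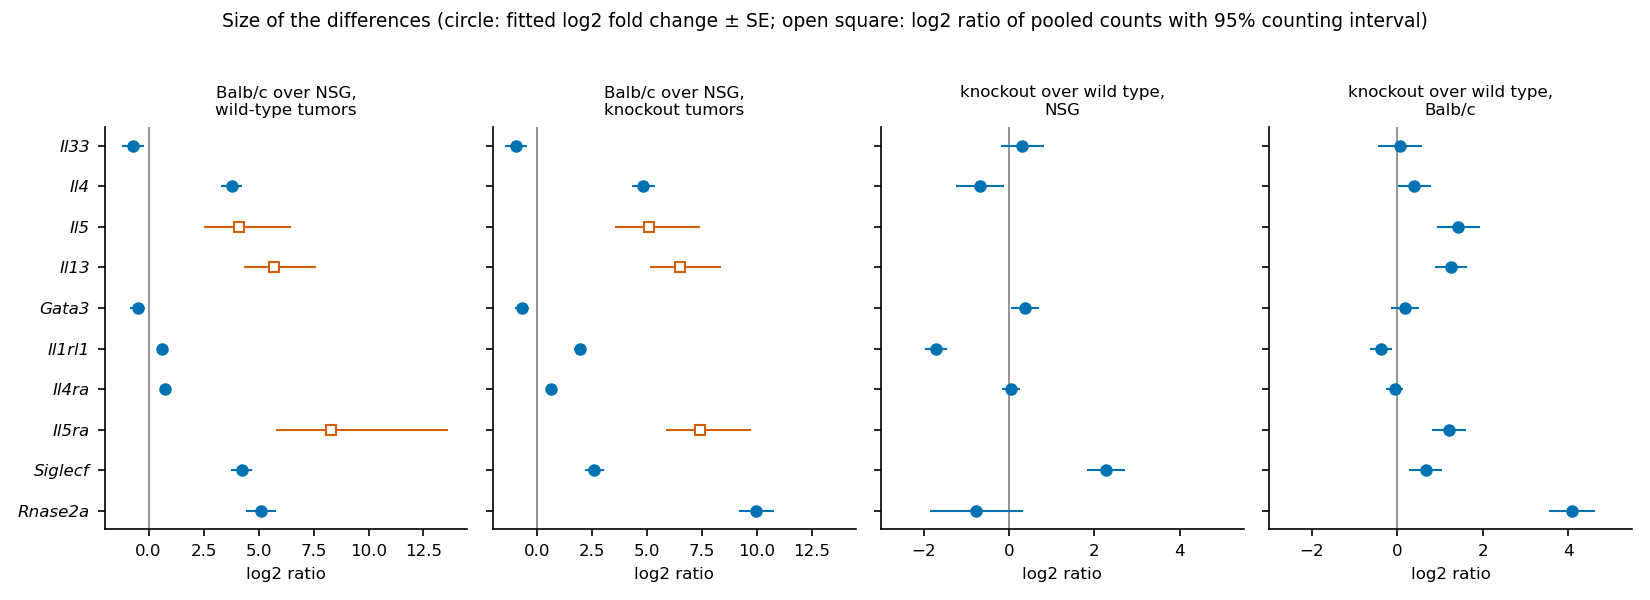
Differences of the 10 genes on the log2 scale in the 4 comparisons; circles with bars are fitted log2 fold changes ± SE, and open squares with bars are log2 ratios of pooled counts with a 95% counting interval, used where a group had 3 counts or fewer per library. The left pair of panels shares one axis range and the right pair another; Il5, Il13 and Il5ra are left out for knockout over wild type in NSG, where every library had 3 counts or fewer.

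The genes around these members in the pathway were taken from 6 lists with 81 genes that are not among the 10, of which 74 passed the filter on low counts. For wild-type tumors 43 rose and 1 fell in Balb/c, 59.5% of those tested, and for knockout tumors 48 rose and 2 fell, 67.6%, beside the 31.5% and 31.1% of all genes (16.2% and 15.4% passed and were lower). Of 12 eosinophil granule and surface genes tested, 9 rose in wild-type and 10 in knockout tumors and none fell. Prg2, which encodes the major basic protein of eosinophil granules, had 0 and 2 counts in NSG wild type and 42.0 and 59.2 CPM in Balb/c wild type, a count ratio of 683 (189 to 5641). All its NSG wild-type counts were in the vCas9 library, so the ratio depends on that library. Epx, the eosinophil peroxidase gene, had no count in any NSG library and 2.55 and 4.57 CPM in Balb/c wild type. It was at least 32.4-fold higher against a floor of 3 counts over both NSG libraries together, the floor behind every such bound here. Prg2 and Epx passed the low-count filter only through their Balb/c libraries, so no p-value is given for them, though the counts of rises include them. In knockout tumors Epx was at least 16.7-fold higher, and Alox15, a lipoxygenase of eosinophils and alternatively activated macrophages, rose by log2 8.16 (SE 0.54; edgeR adjusted p = 0.000238). The median log2 difference of the 12 genes was 3.03 and 3.48 with genes of few counts at their bound or ratio.

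The 14 Th2 and ILC2 genes rose in 11 cases for wild-type and in all 14 for knockout tumors. Icos, a costimulatory receptor of activated T cells and ILC2, had 1 and 3 counts in NSG wild type, against Balb/c wild-type levels of 106 and 114 CPM (count ratio 734, 286 to 2696). In knockout tumors, with 0 and 2 NSG counts, its ratio was 1318 (365 to 10880). At such counts both ratios depend on single NSG libraries, and the intervals cover counting error only. Ccr8, a receptor of Th2 and regulatory T cells, was at least 44.2-fold higher in wild-type tumors, and Klrg1, found on ILC2 and differentiated T cells, was at least 35.5-fold higher in knockout tumors. Icos, Ccr8 and Klrg1 passed the low-count filter only through their Balb/c libraries, so no p-value is given for them, though the counts of rises include them. These genes are not specific to type 2 cells. All 9 T cell markers and all 5 regulatory T cell markers also rose in both genotypes, the summed T cell marker level being 5.46 to 10.6 CPM in NSG and 333 to 374 CPM in Balb/c, and their part in the cytokine levels was not tested.

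Of 19 receptor partners and signaling genes, 13 rose in wild-type and 6 in knockout tumors and none fell. Il2rg rose by log2 4.05 (SE 0.21; edgeR adjusted p = 0.000236) and 4.29 (SE 0.22; edgeR adjusted p = 0.000186), a gene that the NSG genotype itself alters. Il9r, the IL-9 receptor gene, rose by log2 3.60 (SE 1.09) in wild-type tumors. Its counts were 0 and 4 in NSG and 29 and 22 in Balb/c. Il9r passed the low-count filter only through its Balb/c libraries, so no p-value is given, though the count of rises includes it. The log2 value was 2.54 without the NSG parental and 7.72 without the NSG vCas9 library. The call was lost without any of the 4 libraries compared and with the line as a block. Il7r, a receptor chain of lymphocytes and of TSLP signaling, rose by log2 2.89 (SE 0.28; edgeR adjusted p = 0.000544) in knockout tumors. Among 6 further cytokine ligands tested, none passed in wild-type tumors by edgeR, 1 having an unadjusted p under 0.05 (45.8% of all genes did), and the most abundant of them, Il1b, was at log2 0.91 (SE 0.59; edgeR adjusted p = 0.262). In the fit of the 4 wild-type libraries alone Il1b passed (log2 0.98, SE 0.13; edgeR adjusted p = 0.00278). In knockout tumors 2 fell: Tslp, an epithelial alarmin, by log2 -4.31 (SE 0.72; edgeR adjusted p = 0.00395) and Csf2, which encodes GM-CSF, by log2 -1.82 (SE 0.40; edgeR adjusted p = 0.0124). Without the NSG clone 54 library, where Tslp stood at 78.0 CPM against 17.8 for clone 69, the Tslp value was -2.89, and the Csf2 call was lost (edgeR adjusted p = 0.0648).

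Chemokines that attract eosinophils and Th2 cells rose in 3 of 8 cases in wild-type and in 6 of 8 in knockout tumors. Ccl5 rose by log2 2.82 (SE 0.40; edgeR adjusted p = 0.00383) and by 5.84 (SE 0.48; edgeR adjusted p = 0.000359). Ccl11, which encodes eotaxin-1, rose by log2 1.74 (SE 0.50; edgeR adjusted p = 0.0337) in wild-type tumors, a call lost when any of the 4 libraries compared was left out. Ccl1 was at least 7.34-fold higher in knockout tumors, and it too passed the low-count filter only through its Balb/c libraries, so no p-value is given. Of 15 genes induced by IL-4 and IL-13, 7 rose and 1 fell in wild-type tumors and 12 rose in knockout tumors. Of 9 macrophage markers, 1 rose and 2 fell in wild-type tumors and 7 rose in knockout tumors (median log2 difference -0.99 and 1.69), and their part in these counts was not tested. Retnla, a secreted product of alternatively activated macrophages, rose by log2 5.51 (SE 0.66; edgeR adjusted p = 0.00207) in wild-type and by 7.53 (SE 0.70; edgeR adjusted p = 0.000501) in knockout tumors, the latter being 9.18 without the NSG clone 54 and 6.76 without the NSG clone 69 library. Fcer2a, the low-affinity IgE receptor gene of B cells, rose by log2 4.45 (SE 0.69) in wild-type tumors. It was at 14.4 CPM in the parental and 4.44 CPM in the vCas9 tumor of Balb/c. Fcer2a passed the low-count filter only through its Balb/c libraries, so no p-value is given, though the count of rises includes it. The log2 value was 3.36 without the Balb/c parental and 5.14 without the Balb/c vCas9 library. Without the NSG parental library the call was lost. F13a1, a coagulation factor gene of macrophages, fell by log2 -1.66 (SE 0.21; edgeR adjusted p = 0.00253). Pdcd1lg2, which encodes the PD-1 ligand PD-L2, rose by log2 6.13 (SE 0.62; edgeR adjusted p = 0.000642) in knockout tumors and by 5.13 without the Balb/c clone 54 library.

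**Figure D3:**
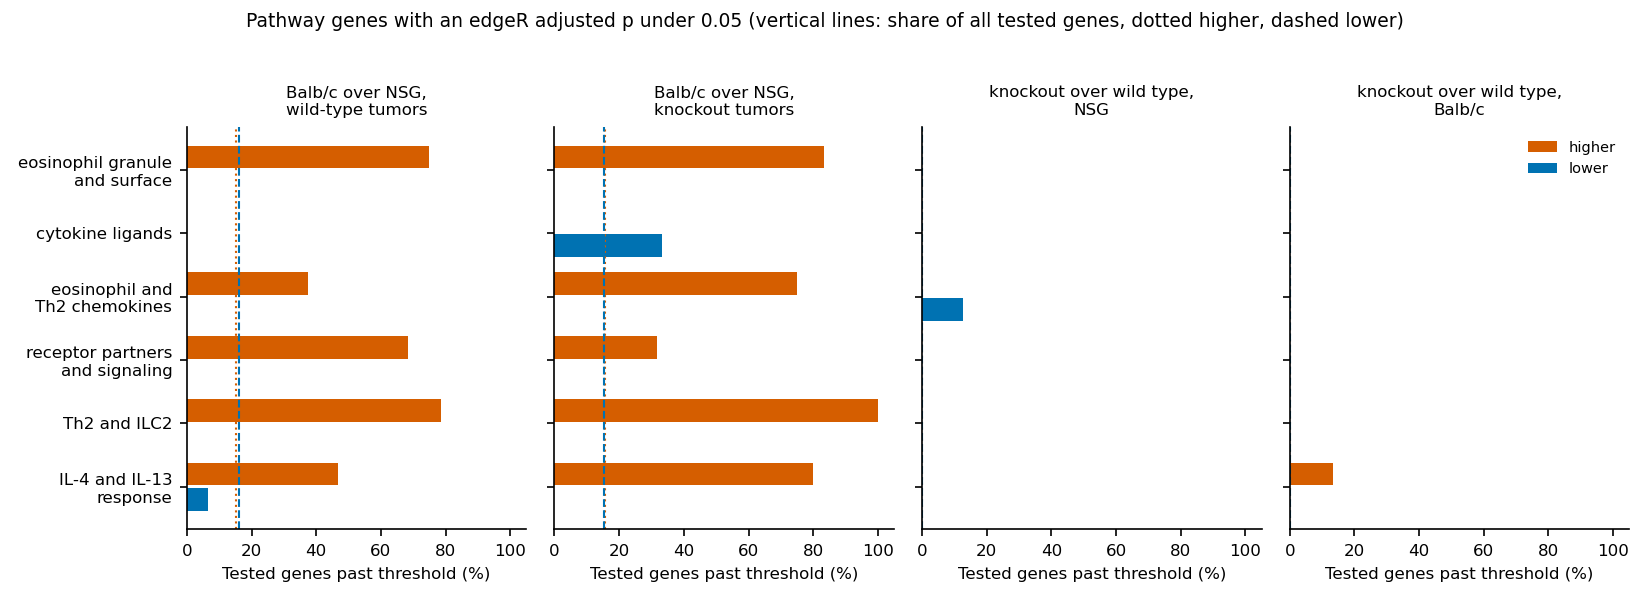
Share of the tested genes of 6 pathway lists with an edgeR adjusted p under 0.05 and a higher (orange) or lower (blue) level, in the 4 comparisons; vertical lines are the shares among all 15310 genes. In the host comparisons 5 of the 6 lists lie above the share of all genes in the higher direction, and in the knockout comparisons 1 gene (NSG) and 2 genes (Balb/c) passed.

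The second question was whether tumors without CD95 differed from wild-type tumors in the same host. In Balb/c, Rnase2a was at 25.1 ± 0.725 CPM (SD, n = 2) in wild type and at 430 ± 297 CPM (SD, n = 2) in knockout tumors. Both knockout libraries were far above both wild-type libraries, and clone 54 was above clone 69. The difference was 17.1-fold (log2 4.10, SE 0.54), or log2 3.03 without clone 54 in Balb/c. Rnase2a was the only one of the 10 genes with an edgeR adjusted p under 0.05, beside 0.176% of all genes tested (0.0457% passed and were higher, 0.131% lower). Leaving out any 1 of 7 of the 8 libraries ended that call, as did fitting the 4 Balb/c libraries alone.

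Il5ra, Il5, Il13 and Siglecf were also higher in both Balb/c knockout libraries than in either wild-type library. The log2 difference was 1.44 (SE 0.50) for Il5 (2.05 without the Balb/c vCas9 library), 1.26 (SE 0.37) for Il13, 1.21 (SE 0.41) for Il5ra and 0.67 (SE 0.39) for Siglecf, and none of these 4 passed the edgeR threshold, while DESeq2 called Il13 and Il5ra besides Rnase2a, where it called 15.0% of all genes. For Siglecf the clone 54 value of 118 CPM was close to the 115 CPM of the vCas9 tumor, and the separation rested on clone 69. In both knockout tumors Il13 stood higher relative to Il4 than in the wild type: per kilobase of exon, the Il13 to Il4 ratio was 0.383 and 0.483 in wild type and 1.20 and 0.592 in knockout. Il4, Il33, Il4ra and Gata3 overlapped between the groups, with log2 differences of 0.40 (SE 0.39), 0.07 (SE 0.51), -0.06 (SE 0.21) and 0.19 (SE 0.34). Il1rl1 was lower in both knockout libraries, by log2 -0.38 (SE 0.25). In all, 5 genes were higher and 1 was lower without overlap, where 32.9% and 29.3% of all genes were so ordered, and 4 had an unadjusted p under 0.05, as had 30.9% of all genes. Nothing is read from these counts, since the genes were picked with the contrast in view.

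The other eosinophil genes had knockout differences of either sign in Balb/c. In Balb/c wild type, Rnase2a per kilobase stood at 1.10 and 0.900 of Siglecf, and in knockout at 21.9 and 4.28. Ccr3, the eotaxin receptor gene, kept nearly the same proportion to Siglecf in all 4 Balb/c libraries (1.46 and 1.36 in wild type, 1.23 and 1.29 in knockout). Prg2 was at 1.56 and 1.72 of Siglecf in wild type and at 0.469 and 0.936 in knockout. Within the ribonuclease family, Ear2 was at 6.20 and 10.1 CPM in wild type and 37.9 and 22.5 CPM in knockout, whereas Ear1 was at 5.10 and 9.01 CPM in wild type and 1.06 and 1.02 CPM in knockout, and Ear6 was at 6.46 and 9.29 CPM in wild type and 0.741 and 3.50 CPM in knockout. None of these passed (edgeR adjusted p = 0.0636 for Ear2, 0.0625 for Ear1 and 0.121 for Ear6), and they were singled out after their values were seen. Of the stretches of 50 exon bases of Ear1 and Ear2, 57.4% and 41.5% occur in other genes, so their reads may be divided between copies, while no such stretch of Rnase2a occurs elsewhere. None of the 12 eosinophil granule and surface genes passed the threshold in this comparison, 4 having an unadjusted p under 0.05 in edgeR, and their median log2 difference was -0.41.

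**Figure D4:**
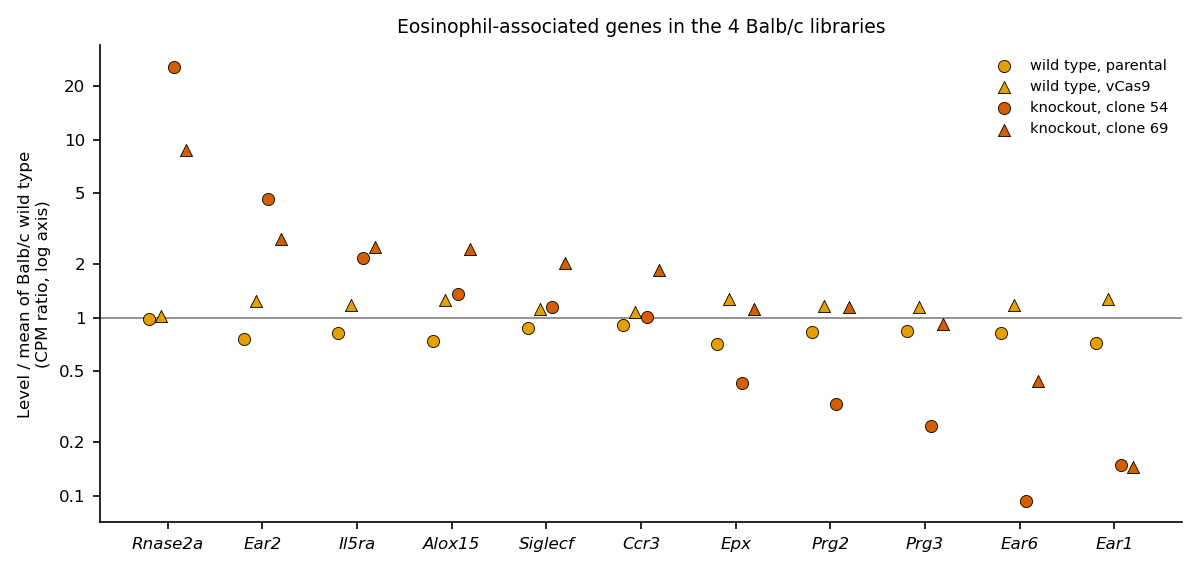
Level of 11 eosinophil-associated genes in the 4 Balb/c libraries divided by the mean of the wild-type libraries (CPM ratio, log axis; the grey line marks 1). Rnase2a lies at 25.5 and 8.76 in the knockout libraries and Ear2 at 4.67 and 2.77, while Ear1 lies at 0.150 and 0.145 and the other genes lie in between or, for Ear6, at 0.0941 and 0.445.

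Markers of several cell types moved with Rnase2a. Over all genes, 32.9% were higher and 29.3% lower in both Balb/c knockout libraries than in either wild-type library. All 9 macrophage markers were higher in both. Their summed level was 1523 and 1807 CPM in wild type and 6741 and 3162 CPM in knockout. None of the 9 passed the edgeR threshold, and 8 had an unadjusted p under 0.05, as had 30.9% of all genes. The first of the list, Adgre1, was at log2 1.26 (SE 0.21; edgeR adjusted p = 0.0564). Of the IL-4 and IL-13 response genes 2 rose, both of them macrophage genes. Chil3, a chitinase-like protein gene, was at 48.8 and 75.4 CPM in wild type and 3724 and 1268 CPM in knockout (log2 5.33, SE 0.55; edgeR adjusted p = 0.045), and Clec10a, a lectin gene, rose by log2 1.67 (SE 0.22; edgeR adjusted p = 0.045). Those 2 calls were 2.70% of the 74 pathway genes tested, beside the 0.176% of all genes. Both calls were lost in the fit of the 4 Balb/c libraries alone (edgeR adjusted p = 0.182 for each) and without either wild-type Balb/c library or any 1 NSG library, and Clec10a also without clone 54 in Balb/c. The Chil3 value was 4.25 without clone 54 in Balb/c. All 6 endothelial markers were also higher in both Balb/c knockout libraries. Their sums were 180 and 253 CPM in wild type and 495 and 442 CPM in knockout. Their median log2 difference was 1.28, beside 1.26 for the macrophage list. Of 10 mast cell and basophil markers, 7 were higher in both (median 1.03) and 1 was lower in both. The sum of these 10 went the other way, at 1167 and 1165 CPM in wild type and 168 and 626 CPM in knockout. Most of that wild-type sum was Hdc. None of the endothelial, mast cell and basophil markers passed the edgeR threshold, 6 of either list having an unadjusted p under 0.05. As in Rnase2a and Chil3, clone 54 was above clone 69 in the summed macrophage and endothelial markers. The part of these cell types in the Rnase2a difference was not tested. Siglecf, Chil3, Ear1 and Ear2 are also genes of alveolar macrophages, and the summed level of the 8 markers of that cell type, most of it Chil3 in the knockouts, was 216 and 299 CPM in wild type and 3988 and 1628 CPM in knockout. Of its other markers, Fabp1 had no count in any library, Marco was at 0.292 CPM or less and Krt79 at 0.875 CPM or less in the Balb/c knockouts, and Car4 was at 66.3 and 88.8 CPM in wild type and 107 and 128 CPM in knockout.

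No other pathway list had a gene past the threshold for this comparison. The most abundant members over all 8 libraries were at log2 -0.90 (SE 0.40) for Csf2rb, the common beta chain of the IL-5 and GM-CSF receptors, -1.26 (SE 0.60) for Il1b, 3.04 (SE 0.57; edgeR adjusted p = 0.0564) for Ccl8, a chemokine that attracts Th2 cells and monocytes, -0.43 (SE 0.21) for Jak1 and 0.32 (SE 0.21) for Id2. Without clone 69 in Balb/c, 3 of these passed: Csf2rb at -1.66 (edgeR adjusted p = 0.012), Il1b at -2.45 (edgeR adjusted p = 0.0164) and Ccl8 at 3.72 (edgeR adjusted p = 0.00313). Without clone 54 they were at -0.50, -0.72 and 1.66 and did not pass. Ccl8 also passed with DESeq2 and without the low-count filter. Ccl8 was at 213 and 237 CPM in wild type and at 2946 and 765 CPM in knockout. Neutrophil markers went the other way, with a summed level of 6940 and 5430 CPM in wild type and 385 and 2214 CPM in knockout. All 8 had a log2 difference below 0 and 7 were lower without overlap (29.3% of all genes were). None passed by edgeR, and 5 had an unadjusted p under 0.05 (30.9% of all genes). S100a8, the first of that list, was at log2 -2.93 (SE 0.82; edgeR adjusted p = 0.071). Its level differed between the clones, at 2200 and 1589 CPM in wild type and 62.1 and 437 CPM in knockout.

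In NSG, Siglecf and Il1rl1 were the genes of the 10 whose libraries did not overlap between the genotypes. Siglecf was higher in both knockout libraries, 4.86-fold (log2 2.28, SE 0.44, or 3.07 without the vCas9 library), and Il1rl1 was lower in both, 3.29-fold (log2 -1.72, SE 0.26). None of the 10 genes had an edgeR adjusted p under 0.05, beside 0.0131% of all genes, 2 had an unadjusted p under 0.05 (14.0% of all genes), and DESeq2 called 2, Siglecf and Il1rl1 (2.41% of all genes). Libraries of all genes were ordered like those of Siglecf in 26.7% and like those of Il1rl1 in 25.8% of cases. Il4 (log2 -0.67, SE 0.57; -1.60 without clone 69 and -0.14 without clone 54 in NSG), Il33 (0.31, SE 0.50), Il4ra (0.05, SE 0.21), Gata3 (0.37, SE 0.33) and Rnase2a (-0.76, SE 1.08) overlapped, and Il5, Il13 and Il5ra were at 3 counts or fewer in every NSG library. Of the 12 eosinophil granule and surface genes tested, none passed by edgeR, 5 had an unadjusted p under 0.05, 1 was higher and 5 were lower without overlap, and the median log2 difference was -0.41. The 1 higher was Ccr3, at 1.11 and 1.82 CPM in wild type and 3.42 and 3.38 CPM in knockout (log2 1.23, SE 0.42; edgeR adjusted p = 0.285). The 5 lower were Alox15, at 13.9 and 10.8 CPM in wild type and 2.57 and 1.29 CPM in knockout (log2 -2.68, SE 0.48; edgeR adjusted p = 0.138), Ear2 (log2 -1.46, SE 0.52), Cebpe (-1.34, SE 0.66), Csf2rb2 (-1.06, SE 0.33) and Csf2rb (-0.98, SE 0.40), while Epx and Prg3 had no count in any NSG library. Per kilobase, Ccr3 stood at 0.303 and 0.198 of Siglecf in NSG wild type and at 0.0989 and 0.123 in NSG knockout, below the proportions of 1.23 to 1.46 in Balb/c. Markers of other cell types also differed between the NSG groups. Epithelial genes were higher, all 7 markers being higher in both knockout libraries, with sums of 1060 and 1321 CPM in wild type and 2902 and 1910 CPM in knockout. None of these 7 passed (Epcam, the first of the list, log2 2.11, SE 0.75; edgeR adjusted p = 0.298). All 5 luminal and 6 of 7 fibroblast markers were likewise higher in both knockout libraries, and all 9 macrophage markers were lower in both, with sums of 2497 and 2556 CPM in wild type and 1325 and 1701 CPM in knockout. None of those markers passed by edgeR, with an unadjusted p under 0.05 for 4 luminal, 0 fibroblast and 4 macrophage markers. The part of these cell types in the Siglecf, Il1rl1, Alox15 and Ccl24 differences was not tested.

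Among the 74 pathway genes tested, 1 passed in this comparison (1.35%). Ccl24, the eotaxin-2 gene, fell from 25.1 and 19.5 CPM to 3.10 and 4.38 CPM (log2 -2.57, SE 0.23; edgeR adjusted p = 0.0316). The call was lost with any 1 of the 8 libraries left out and in the fit of the 4 NSG libraries alone, with log2 values from -2.85 to -2.35. In the other lists no gene passed. The most abundant member over all 8 libraries was at log2 -0.98 (SE 0.40) for Csf2rb, 0.37 (SE 0.59) for Il1b, 0.00 (SE 0.21) for Jak1, -1.40 (SE 0.21; edgeR adjusted p = 0.103, but passed with DESeq2 and without the filter) for Id2, a regulator of innate lymphoid cells, and -0.41 (SE 0.41) for Tgm2, a transglutaminase gene induced by IL-4. Over the NSG libraries alone the most abundant gene of that last list was Postn, at 716 and 1119 CPM in wild type and 1287 and 1126 CPM in knockout (log2 0.39, SE 0.46).

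Whether the knockout difference itself differed between hosts was fitted as an interaction. None of the 10 genes had an edgeR adjusted p under 0.05 for it, as was so for all 15310 genes (0.0% called), 3 of the 10 had an unadjusted p under 0.05 (22.5% of all genes), and DESeq2 called 2, Rnase2a and Il1rl1 (6.9% of all genes). The 3 were Rnase2a, Il1rl1 and Siglecf. The signed knockout difference in Balb/c minus that in NSG was log2 4.86 (SE 1.18) for Rnase2a, which was higher in the Balb/c knockouts and low in all NSG libraries. It was 3.78 without the Balb/c clone 54 and 5.90 without the NSG clone 54 library. For Il1rl1 it was 1.34 (SE 0.36), the knockout level lying less far below wild type in Balb/c than in NSG, and for Siglecf it was -1.61 (SE 0.59), the knockout level lying less far above wild type in Balb/c. The Siglecf value was -2.40 without the NSG vCas9 and -1.07 without the NSG parental library. Without clone 69 in Balb/c, Rnase2a (5.45) and Siglecf (-2.07) passed by edgeR, as did Rnase2a without the low-count filter. All 9 macrophage markers had an interaction above 0 (median log2 1.96, 9 with an unadjusted p under 0.05). All 8 neutrophil markers had one below 0 (median -3.195, 7 with an unadjusted p under 0.05). None of these markers passed by edgeR, and the part of these cell types in the interaction values was not tested. None of the 74 pathway genes passed by edgeR, 28 had an unadjusted p under 0.05, and DESeq2 called 19, beside those 22.5% and 6.9% of all genes. The most abundant member of each list was at log2 0.08 (SE 0.57) for Csf2rb, -1.63 (SE 0.84) for Il1b, 2.59 (SE 0.77; edgeR adjusted p = 0.128) for Ccl8, -0.43 (SE 0.30) for Jak1, 1.72 (SE 0.30; edgeR adjusted p = 0.0786) for Id2 and 0.35 (SE 0.57) for Tgm2. Without clone 69 in Balb/c, Il1b was at -2.82 (edgeR adjusted p = 0.0276), Ccl8 at 3.26 (edgeR adjusted p = 0.00712) and Id2 at 1.74 (edgeR adjusted p = 0.0156), and without clone 54 Ccl8 was at 1.19. Ccl8 and Id2 also passed with DESeq2 and without the filter, and Id2 with the clones paired crosswise (edgeR adjusted p = 0.04).

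Per kilobase of exon, which allows levels to be set side by side between genes, the order of the 10 genes shifted between groups. In NSG wild type Il4ra was first at 61.8 CPM per kb, followed by Il33 at 47.7, Il1rl1 at 21.6 and Gata3 at 8.78, and the ranges of Il4ra (55.5 to 68.2) and Il33 (37.9 to 57.6) overlapped. Siglecf (1.97), Il4 (1.07) and Rnase2a (0.993) followed without separation from each other by more than their ranges. In NSG knockout Siglecf (9.48 CPM per kb) had moved ahead of Il1rl1 (6.57), with ranges that did not overlap. In Balb/c wild type Il4ra led at 104 CPM per kb, and Siglecf (36.7), Rnase2a (36.3), Il1rl1 (33.2) and Il33 (29.3) lay close together, Il4 at 14.8, Il13 at 6.47 and Il5 at 1.24 being the cytokines below them. In Balb/c knockout Rnase2a was first, at 623 CPM per kb with a range of 318 to 927, above Il4ra at 99.7, and Il5 was last at 3.39.

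For each gene the 3 others with the most similar pattern were taken by the root mean square difference of centred log2 CPM over the 8 libraries, among 11431 genes with a mean of at least 5 CPM. As a description over points that share hosts and lines, Siglecf was closest to Sytl1 (0.302), Spns3 (0.482) and Slco4c1 (0.572), and Il5ra to Vmn2r26 (0.472), Slc17a6 (0.482) and Ccr3 (0.571). Rnase2a had no close match, the nearest being Retnla at 0.738, Gm15056 at 1.24 and Nkg7 at 1.25. Il4 was closest to Bank1 (0.373), Adora2a (0.416) and S1pr4 (0.438), Il5 to Cst7 (0.383), Lag3 (0.399) and Gna15 (0.432), and Il13 to Col6a5 (0.402), Vmn2r26 (0.549) and F5 (0.570). Il33 was closest to Map2 (0.269), Dmtn (0.284) and Klc3 (0.302), Il1rl1 to Mettl21c (0.198), Eepd1 (0.215) and Tbc1d9 (0.223), Gata3 to Nck2 (0.114), Sh3d19 (0.160) and Zfp7 (0.175), and Il4ra to Vrk3 (0.100) and Rassf2 (0.104) besides a gene without a symbol.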

How the data were processed

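RNA sequencing counts of 8 tumor libraries were used. The authors deposited whole-number counts per Ensembl gene, 1 file per library, without visible normalization. Per the submitters' processing notes, cutadapt 1.13, STAR, HTSeq 0.6.1p1 and DESeq2 were used and the builds mm10 and hg19 are named, with no role given. The strand setting and the annotation release are not given in the sources used here. Symbols for 24942 of 25006 genes, positions and exon lengths came from GENCODE M21 (GRCm38), and promoters from RefSeq (GRCm38.p6).

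The 10 genes, the 6 pathway lists and the 11 marker lists were chosen with earlier results of these data known. Groups came from the labelled host and CD95 status. One model with 4 group means was fitted to the 8 libraries in R 4.3.3 with edgeR 4.0.16 (TMM, filterByExpr, estimateDisp, glmQLFit, glmQLFTest). It kept 15310 genes, with a common biological coefficient of variation of 0.244 and 4 residual degrees of freedom, and p-values were two-sided and adjusted over all genes (Benjamini-Hochberg, threshold 0.05). Genes with few or no NSG counts, among them Il5ra, Il9r and Fcer2a, were kept only through their Balb/c libraries, so their host calls are a description. The procedure was tested on simulated data, but no outcome of that is given here and no result rests on it. DESeq2 1.42.0 served as an alternative. With 2 lines per group and 1 library per line, p-values rest on the spread between libraries, estimated over all 4 groups. Differences between lines and between tumors cannot be told apart in that spread. Totals of 8.68 M to 19.7 M counts put the floor of 3 counts at a fraction of 1 CPM. Intervals and floors cover counting error only, because no molecular identifiers are stated.

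From each list the text names, among genes past the threshold, at most 2 that rose and 2 that fell, those of largest change, or the most abundant gene where none passed, and the first gene of each marker list where it bore on a result. Each line was grown in both hosts, so the line pairs libraries. The differences between lines correlated across hosts, over genes, at r = 0.09 for the wild-type lines and r = -0.35 for the knockout clones.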

Additional observations from a re-analysis of the deposited data

How the results depend on the processing

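The alternatives were RLE size factors, scaling by total counts, DESeq2, no low-count filter, a fit of only the 4 libraries compared, the cell line as a replicate block, and leaving out each library in turn. With the line as a replicate block, Balb/c over NSG gave 2073 genes (main 4825) and 29 pathway genes (main 44) in wild-type tumors and 2878 genes (main 4757) in knockout tumors. It moved no other count of calls by over 1.5 times. Pairing clone 54 with clone 69 across hosts, added after seeing the data because r was negative, gave 307 genes and 11 pathway genes (main 0 and 0) for the interaction. Fitting only the 4 libraries compared gave 2450 genes for Balb/c over NSG in knockout tumors, 1 gene and 0 pathway genes for knockout over wild type in NSG (main 2 and 1), and 0 genes, 0 of the 10 and 0 pathway genes in Balb/c (main 27, 1 and 2). DESeq2 gave 339 genes, 2 of the 10 and 10 pathway genes in NSG, 2161, 3 and 17 in Balb/c, and 968, 2 and 19 for the interaction (main 0, 0 and 0). Without the filter these were 133, 2 and 7 in NSG, 1774 and 16 genes and pathway genes in Balb/c, and 674, 1 and 16 for the interaction. RLE gave 94 genes and 4 pathway genes in Balb/c, and total counts gave 2 pathway genes in NSG. Total counts also moved the median of all genes in the host comparisons to -0.24 and -0.17, and the split of higher and lower calls from 2344 and 2481 to 1905 and 3315 in wild type (2676 and 1945 with RLE, 2793 and 2129 with DESeq2), and from 2403 and 2354 to 1756 and 2951 in knockout.

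Leaving out 1 library gave 858 to 6361 genes, 5 to 8 of the 10 and 14 to 47 pathway genes for Balb/c over NSG in wild type, and 2461 to 4640, 7 to 10 and 35 to 48 in knockout. For knockout over wild type it gave 0 to 1 genes, 0 to 0 of the 10 and 0 to 0 pathway genes in NSG, and 0 to 3886, 0 to 1 and 0 to 24 in Balb/c, the highest without clone 69 in Balb/c. For the interaction it gave 0 to 2370, 0 to 2 and 0 to 22. Signs also turned, with 1 library left out, for some of the 10 genes that did not pass. Knockout over wild type in NSG ranged from -0.11 to 0.63 for Il33, -0.10 to 0.20 for Il4ra and -1.79 to 0.31 for Rnase2a, and in Balb/c from -0.14 to 0.70 for Il4, -0.98 to 0.57 for Il33, -0.33 to 0.10 for Il4ra and -0.43 to 0.52 for Gata3. The interaction ranged from -0.18 to 1.84 for Il13, -1.28 to 0.25 for Il33, -2.90 to 3.57 for Il5ra, -0.39 to 0.06 for Il4ra and -0.79 to 0.14 for Gata3. Signs turned for pathway genes as well. Knockout over wild type in NSG was -0.36 to 0.85 for Il1b with 1 library left out, and for Jak1 0.00 in the 4 libraries, 0.07 with total counts and -0.20 to 0.17 with 1 library left out. The interaction of Csf2rb was -0.01 with RLE, -0.03 with the replicate block, -0.03 with crossed pairing and -0.68 to 0.47 with 1 library left out, and that of Tgm2 was -0.22 to 0.78 with 1 library left out. The causes were not tested. Low counts limit Il5, Il13 and Il5ra in NSG, and among the pathway genes named Prg2, Epx, Icos, Ccr8, Klrg1, Ccl1 and Il9r.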

Other observations

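Of 10 mast cell and basophil markers, the mast cell protease genes Cpa3, Mcpt4, Tpsb2 and Cma1 fell in Balb/c in both genotypes, by log2 -2.83 to -1.87 in wild-type tumors (edgeR adjusted p = 0.00546 for Tpsb2 and 0.00955 for Mcpt4) and by -1.74 to -1.43 in knockout tumors (edgeR adjusted p = 0.017 for Tpsb2 and 0.0141 for Cpa3). Cpa3 was at 19.1 and 25.3 CPM in NSG wild type, 24.8 and 48.1 in NSG knockout, 5.78 and 4.37 in Balb/c wild type and 14.1 and 12.9 in Balb/c knockout. Tpsb2 was at 23.3 and 60.0 CPM in NSG knockout and at 13.5 and 11.4 CPM in Balb/c knockout, so the size of its fall there depended on the NSG clone. Kit, the stem cell factor receptor gene, which mammary epithelium also expresses, rose instead in wild-type tumors, from 13.5 and 17.2 CPM in NSG to 35.2 and 44.4 CPM in Balb/c (log2 1.37, SE 0.32; edgeR adjusted p = 0.0172), and stood at log2 -0.21 (SE 0.31) in knockout tumors. Mcpt8, a basophil protease gene, was at log2 0.73 (SE 0.58) in wild-type tumors and did not pass in either genotype. These genes, apart from Cpa3, were singled out after their values were seen. Hdc, the histamine-forming enzyme gene that neutrophils and other myeloid cells also express, did not follow them, at 282 and 378 CPM in NSG wild type and 1108 and 1098 CPM in Balb/c wild type (log2 1.74, SE 0.73; edgeR adjusted p = 0.102).

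Over all genes, 15.3% rose and 16.2% fell in Balb/c for wild-type tumors, and 15.7% rose and 15.4% fell for knockout tumors. Nothing is read from marker counts near these shares. Counted over whole marker lists, Balb/c over NSG in wild-type and knockout tumors gave 7 and 7 rises among 8 eosinophil markers. That list includes Siglecf and Il5ra, which are among the 10 genes picked with these contrasts in view. Of the same list, Epx, Prg2, Prg3 and Il5ra passed the low-count filter only through their Balb/c libraries. Nothing is therefore read from the eosinophil count. There were 1 rise with 5 falls and 0 rises with 4 falls among 10 mast cell and basophil markers, and 1 rise with 2 falls and 7 rises among 9 macrophage markers. For 8 neutrophil markers the counts were 4 rises, then 1 rise with 1 fall, and for 7 markers of alveolar macrophages tested they were 3 rises with 1 fall, then 4 rises. Of 7 fibroblast markers 1 and 6 fell, of 6 endothelial markers 2 fell in wild-type and 1 rose in knockout tumors, of 7 epithelial markers 1 rose in wild-type and 1 fell in knockout tumors, and of 5 luminal markers 1 rose in wild-type tumors. For knockout over wild type, 1 marker passed by edgeR in Balb/c, Chil3, beside 0.176% of all genes.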
